A study of Homo sapiens with 6 samples.

Results

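Interferon-stimulated genes are genes whose transcription rises when a cell senses interferon. A set of 39 of them was chosen by symbol from the 58735 genes of the deposited table, and 38 of the 39 had enough counts to be tested among 17215 genes. They were followed by RNA sequencing in LX-2, a line established from human hepatic stellate cells, the matrix-forming cells of the liver, in 6 libraries. In 3 libraries the cells were transfected with an siRNA labelled as targeting NSUN2, an RNA cytosine methyltransferase, and 48 h later received TGF-β1 at 5 ng/ml for 24 h. In the other 3 libraries the cells were transfected with the same siRNA and received no TGF-β1. Both groups therefore carry the siRNA, delivered with a lipid reagent, and both are labelled WT for genotype. The design text of the series also names NAT10 as its target, whereas every sample label names NSUN2, which is used here. No library without siRNA was analysed here, and what follows shows the difference that goes with TGF-β1 in siRNA-treated cells and nothing about the siRNA itself. Replicates are labelled biological, with no statement that they came from separate cultures, so p-values measure the spread between these libraries. The time of harvest of the cells without TGF-β1 is not labelled.

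Type I and type III interferons bind surface receptors whose JAK1 and TYK2 kinases activate a complex of STAT proteins with IRF9. That complex binds the interferon-stimulated response element in the promoters of many of the genes described here, and their products bind viral RNA, hold back viral entry or budding, degrade RNA, or feed back on the pathway. Stellate cells carry cytosolic RNA sensors and can raise these genes when double-stranded RNA enters them. TGF-β1 signals through other receptors and SMAD proteins, and is the best known activator of stellate cells.

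Promoter sequences were available in the RefSeq promoter table (GRCh38.p14) for 32 of the 39 genes. The core of the interferon-stimulated response element, GAAA followed by any 2 bases and GAAA again, on either strand and with overlapping matches counted, lay in the 250 bases upstream of a start in 19 of the 32 genes, or 59.4%, and in 3.71% of the 27305 genes of that table. The 6 stretches printed here show this shared feature in 1 gene that was higher with TGF-β1 (IFI44), in 2 that were lower (IFIT1 and IFI6) and in 3 that passed the threshold in neither direction (ISG15, SAMD9 and IFI27). Each reads 5′ to 3′ on the strand of its gene, and capitals mark the matches to the core, which on the opposite strand reads TTTC, any 2 bases, TTTC. The positions are chr1:78649751-78649788 (plus strand) for IFI44, chr10:89392487-89392549 (plus) for IFIT1, chr1:27672256-27672327 (minus) for IFI6, chr1:1013364-1013419 (plus) for ISG15, chr7:93118086-93118135 (minus) for SAMD9 and chr14:94110608-94110670 (plus) for IFI27.
IFI44: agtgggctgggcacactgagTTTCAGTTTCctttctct
IFIT1: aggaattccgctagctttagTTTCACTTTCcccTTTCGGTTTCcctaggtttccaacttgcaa
IFI6: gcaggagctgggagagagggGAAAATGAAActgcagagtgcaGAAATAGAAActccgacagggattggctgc
ISG15: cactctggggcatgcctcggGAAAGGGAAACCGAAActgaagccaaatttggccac
SAMD9: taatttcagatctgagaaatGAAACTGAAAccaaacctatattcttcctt
IFI27: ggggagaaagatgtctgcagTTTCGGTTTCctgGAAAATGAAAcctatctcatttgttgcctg
The match nearest to the start was 9 bases upstream in IFI44, 94 in IFIT1, 84 in IFI6, 98 in ISG15, 127 in SAMD9 and 86 in IFI27. The core was present in 8 of the 13 matched genes that passed the threshold (1 higher, 7 lower) and in 11 of the 18 that did not. The GAS core TTCNNNGAA, bound by STAT dimers, matched itself on the other strand and lay in the same window of 9 of the 32 genes, or 28.1%, against 8.09% of all genes of the table. A match is a run of letters and not a shown binding site, and 7 genes without an entry (IFIT2, IFITM2, MX2, OAS2, OASL, USP18 and IRF7) were not searched.

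**Figure D1:**
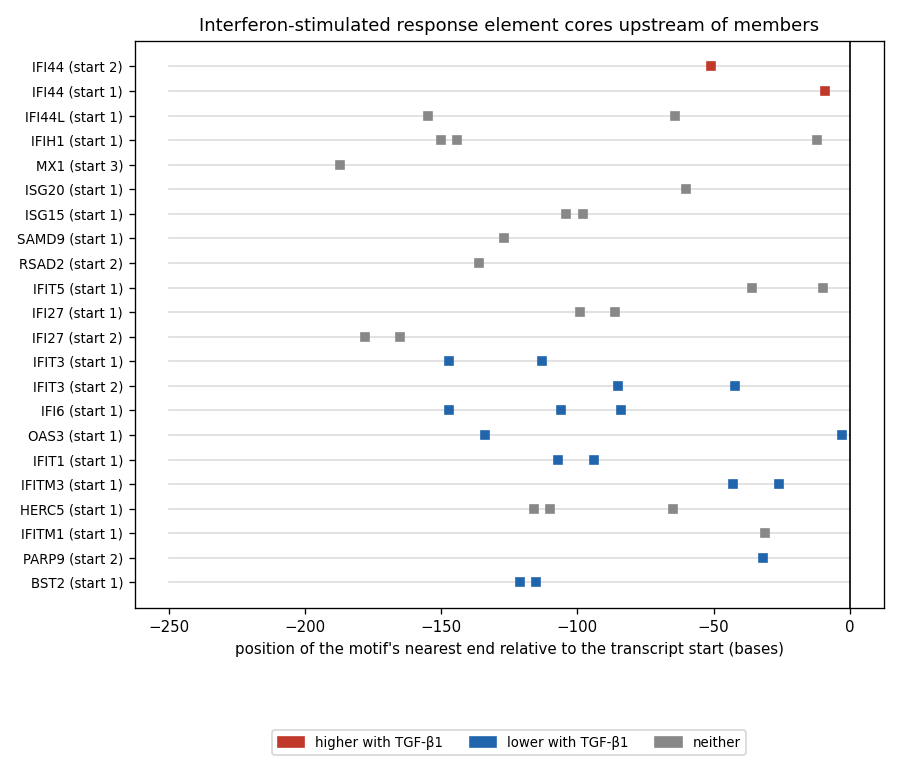
Positions of the matches to the interferon-stimulated response element core upstream of the interferon-stimulated genes, 1 row per annotated start, with the x axis in bases relative to the start; red marks a gene higher with TGF-β1, blue a lower one and grey a gene past the threshold in neither direction. Red, blue and grey rows all hold matches, and those of IFI44 lie 9 and 51 bases upstream of its starts.

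With TGF-β1, more interferon-stimulated genes were lower than higher, by small amounts. IFITM2 and IFITM3, which block viral entry, the DNA sensor IFI16 and the budding inhibitor BST2 fell. So did IFI35, IFIT1, IFIT3 and the PARP9 and DTX3L pair, while IFI44, the transcription factor IRF1 and OASL rose. Of the 38 tested, 13 were lower (34.2%) and 3 were higher (7.89%) at an adjusted p under 0.05 (edgeR quasi-likelihood test, Benjamini-Hochberg adjustment over 17215 genes). Over all tested genes, 18.7% were lower and 20.2% were higher. The median log2 fold change of the set was -0.13 (range -0.88 to 0.62), against -0.01 for all tested genes. Of the 38 fitted values 31 were negative, called or not, against 8798 of 17215 for all tested genes. No set test was run on these counts. In bulk RNA, fewer cells expressing a gene and less of its RNA per cell cannot be told apart.

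No tested interferon-stimulated gene changed 2-fold or more (a log2 change of 1), whereas 3.11% of all tested genes were higher and 3.4% lower by that much. At an absolute log2 change of at least 0.5, 1 gene (2.63%) was higher and 3 (7.89%) were lower, against 6.46% and 8.07% of all tested genes. At 0.25 or more the set had 2 higher genes (5.26%) and 9 lower ones (23.7%), against 12.9% and 14.2% of all tested genes. The 16 genes past the threshold had a median absolute log2 change of 0.35, beside 0.37 for all called genes.

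The TGF-β1 libraries lay entirely below the others for 16 of the 38 genes and entirely above them for 4, or 52.6% together. Among all tested genes the groups were apart in 47.4%, with 23.3% below and 24.1% above. Of the 16 genes past the threshold the groups were apart in 15, and OAS2 was the exception. The matching share among all called genes was not computed, so this count adds nothing to the calls. Summed over the 39 genes, the level was 1243, 1285 and 1247 CPM (normalised read counts, scaled to a common library size with the TMM factors of edgeR) with TGF-β1, against 1440.5, 1435 and 1405 CPM without it. The TGF-β1 libraries were thus all lower in the sum, which the most abundant genes dominate. As a share of raw counts, the set took 0.119, 0.123 and 0.120% with TGF-β1, against 0.15, 0.149 and 0.146% without it.

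**Figure D2:**
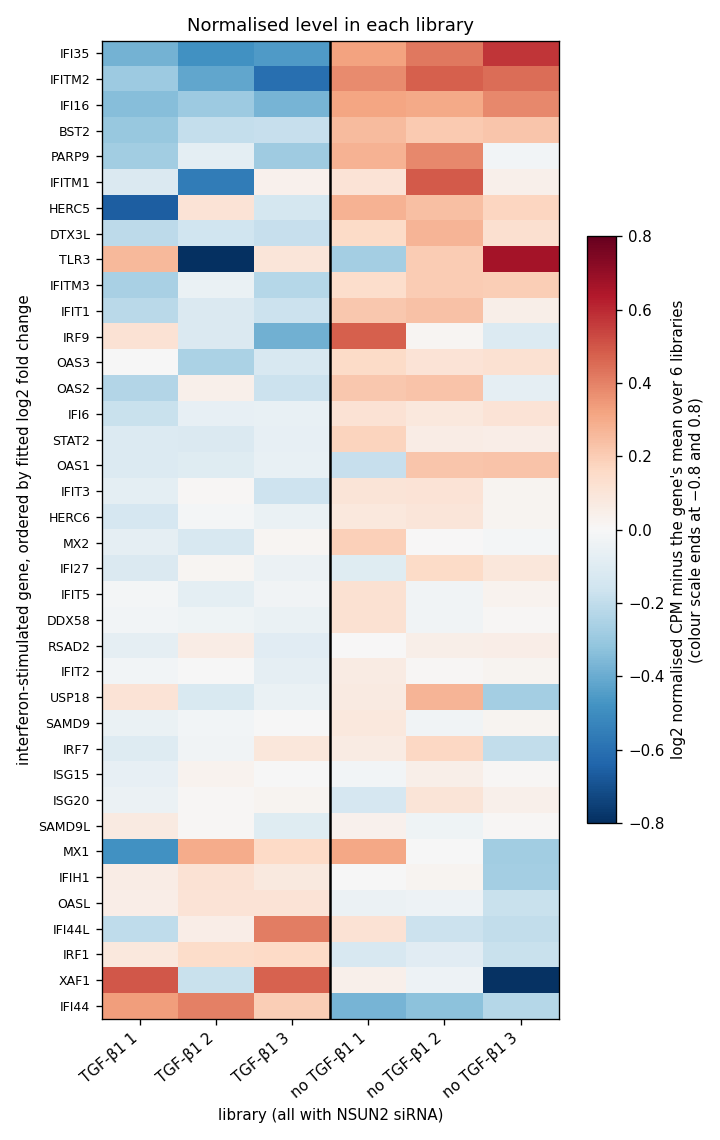
Level of each tested interferon-stimulated gene (rows, ordered by fitted log2 fold change) in each library (columns, the 3 TGF-β1 libraries left and the 3 without TGF-β1 right), as log2 normalised CPM minus the mean of the gene over the 6 libraries. The rows at the lower end of the fitted change, led by IFI35 and IFITM2, are low in all 3 TGF-β1 libraries, and IFI44 is high in all 3.

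**Figure D3:**
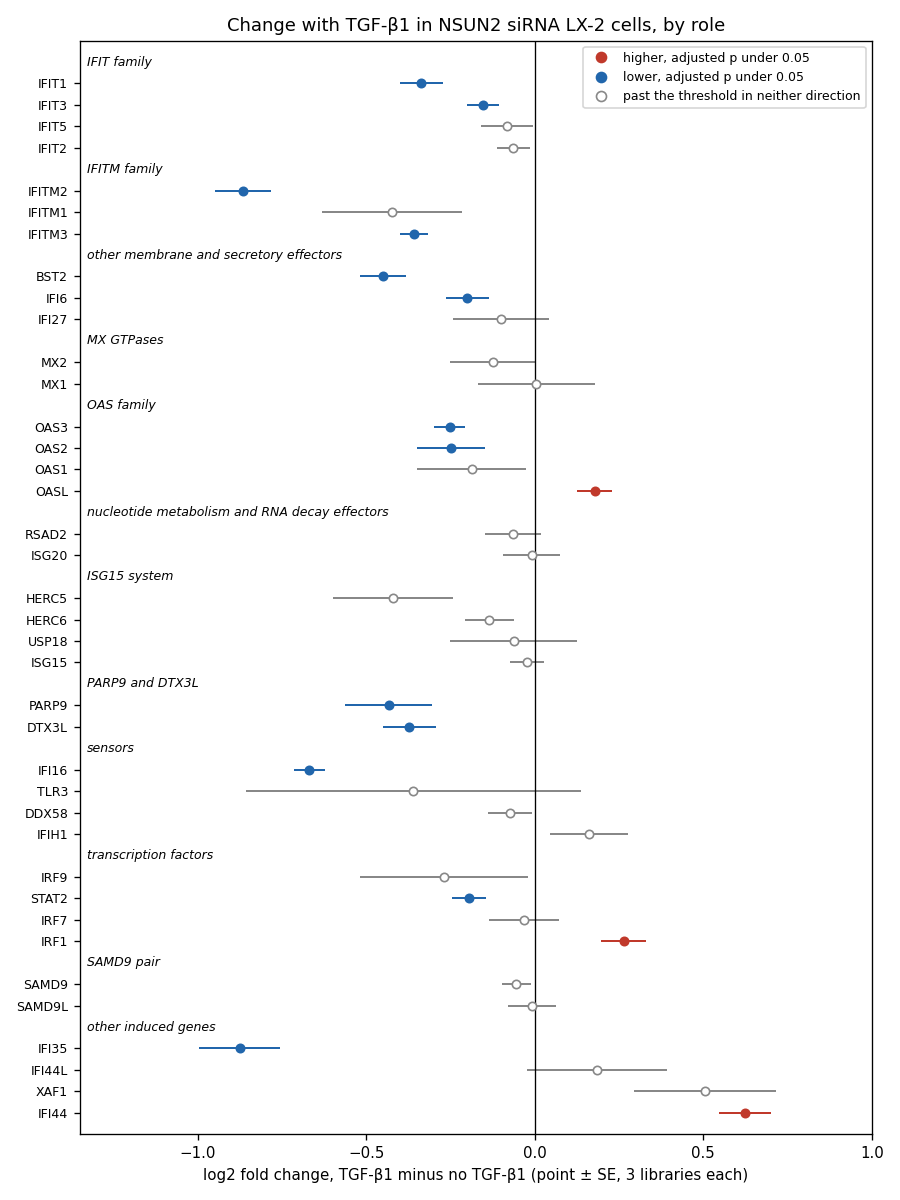
Fitted log2 fold change (TGF-β1 minus no TGF-β1, point ± SE, 3 libraries each) of the 38 tested interferon-stimulated genes, grouped by role, with red and blue filled points past an adjusted p of 0.05. The IFIT, IFITM and PARP9-DTX3L groups lie entirely below 0, the ISG15 group has no filled point, and IFI44 is the highest point at 0.62.

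The libraries held 25828504, 29978361 and 26921502 counts with TGF-β1, and 30034762, 29257393 and 26957170 without it. The treatment label was checked on a target of TGF-β1: PMEPA1 had 525, 498 and 513 CPM with TGF-β1 against 9.82, 10.7 and 8.99 CPM without it, higher by 5.70 ± 0.05 on the log2 scale (SE). NSUN2 itself stood at 103, 97.0 and 102 CPM with TGF-β1 and at 81.4, 82.9 and 84.4 CPM without it, so the gene named as the siRNA target was itself higher with TGF-β1 (0.28 ± 0.04 on the log2 scale, adjusted p = 1.57e-06, edgeR). Its knockdown cannot be checked without libraries that lack the siRNA. Of 11 stellate cell markers, 9 were tested and 5 of these were higher and 4 lower. Among all tested genes 20.2% were higher and 18.7% lower. The higher markers were PDGFRB (1.75 on the log2 scale), COL1A1 (1.49), LOX (1.18), TIMP1 (0.44) and VIM (0.08). The lower ones were PCDH7 (-1.65), GATA4 (-0.77), HAND2 (-0.74) and THY1 (-0.14). The summed level of the 11 was 5540 to 6160 CPM with TGF-β1 and 2975 to 3015 CPM without it. Most of that difference was COL1A1, at a mean of 3993 CPM with TGF-β1 and 1418 CPM without it. VIM, the other large term, averaged 1121 CPM with TGF-β1 and 1062 CPM without it. LRAT, which defines quiescent stellate cells, was at 0 and DES had 12 counts in all. Every library is labelled as LX-2 alone, so markers of other cell types are given only as transcripts found in these libraries. Of 6 macrophage markers, 4 had a mean under 1 CPM (summed level 15.1 to 18.2 with TGF-β1 and 11.7 to 14.6 without it). PTPRC, which marks blood-derived cells, had 9 counts in all. The other 2 macrophage markers differed in opposite directions: CSF1R averaged 12.3 ± 0.121 CPM with TGF-β1 and 4.34 ± 0.965 without it (1.495 on the log2 scale, adjusted p = 1.27e-11), and CD14 averaged 3.71 ± 1.70 CPM with TGF-β1 and 8.49 ± 1.205 without it (-1.18, adjusted p = 0.0014; SD, n = 3 each, edgeR). The plasmacytoid dendritic cell markers CLEC4C and LILRA4 were at 0, that list's sum of 58.8 to 61.8 with TGF-β1 and 35.3 to 37.4 without it being almost all TCF4, which was higher (0.77, adjusted p = 1.8e-14, edgeR). Hepatocyte markers summed to 21.3 to 23.1 CPM with TGF-β1 and 23.6 to 27.4 without it, 5 of 6 under 1 CPM. Endothelial markers summed to 1.51 to 1.94 CPM with TGF-β1 and 1.82 to 2.37 without it, all 4 under 1 CPM, and cholangiocyte markers to 3.94 to 5.37 with TGF-β1 and 2.69 to 3.45 without it, 2 of 3 under 1 CPM. The part of these markers in the results was not tested.

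Among the transcription factors of the pathway, 1 rose, 1 fell and 2 passed the threshold in neither direction. IRF1, an interferon-induced activator that also drives antigen presentation genes, had 36.1, 37.7 and 38.0 CPM with TGF-β1, against 31.1, 32.0 and 30.1 CPM without it. All 3 TGF-β1 libraries were above the others, and IRF1 was higher by 0.26 ± 0.07 on the log2 scale (SE; adjusted p = 0.00152, edgeR). When libraries were scaled by their totals alone, which lowers the median of all tested genes, this became 0.14 with an adjusted p of 0.0835 (edgeR). IRF1 kept its call under the other 17 alternatives, DESeq2 size factors and upper-quartile factors among them. Of the exonic bases of IRF1, 22.0% overlap a gene on the opposite strand, and it is not stated whether reads were counted by strand.

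STAT2, the partner of IRF9 in the complex that binds the response element, moved the other way. Its level was 63.1, 62.8 and 64.9 CPM with TGF-β1, against 77.1, 70.8 and 70.4 CPM without it. The groups did not overlap, and STAT2 was lower by a log2 change of -0.19 ± 0.05 (adjusted p = 0.00178, edgeR); limma on log2(FPKM + 1) with no filter gave -0.17 and an adjusted p of 0.0603. IRF7, which amplifies the interferon response, had 14.4, 15.2 and 16.5 CPM with TGF-β1 and 16.2, 17.4 and 13.5 CPM without it. Its groups overlapped, with a log2 change of -0.03 (95% interval -0.24 to 0.18; adjusted p = 0.847, edgeR). IRF9, the DNA-binding subunit of that complex, was low, between 1.74 and 3.17 CPM over the 6 libraries, and gave -0.27 (95% interval -0.77 to 0.23; adjusted p = 0.432, edgeR). As 48.4% of the exonic bases of IRF9 overlap another gene on the same strand, its counts are uncertain as well as few.

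Of the sensors, IFI16 fell and the RNA sensors did not pass the threshold. IFI16, which detects DNA in the nucleus and cytosol, had 66.1, 68.2 and 64.5 CPM with TGF-β1, against 104, 103 and 109 CPM without it. The gap between groups was many times the spread within them, and the log2 change was -0.67 ± 0.05 (adjusted p = 4.57e-16, edgeR), the smallest p of the set. DDX58, which encodes the RNA sensor RIG-I, had 36.8, 36.6 and 36.1 CPM with TGF-β1 and 40.7, 36.8 and 37.8 CPM without it. The groups overlapped near 36.8 CPM, and the 95% interval of its log2 change was -0.21 to 0.06 (adjusted p = 0.417, edgeR). IFIH1, which encodes the RNA sensor MDA5, had 11.7, 12.1 and 11.8 CPM with TGF-β1 and 11.2, 11.4 and 9.28 CPM without it. The TGF-β1 libraries were all above the others, but the log2 change of 0.16 ± 0.12 did not pass (adjusted p = 0.292, edgeR). TLR3, the endosomal sensor of double-stranded RNA, had 96 counts in all libraries together, and its interval of -1.36 to 0.64 leaves its change undetermined at this depth.

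The 4 IFIT genes lie near each other on chromosome 10, and 2 of them fell. Some products of this family bind viral RNA ends and block its translation. IFIT1 (chr10:89392546-89406486, plus strand) had 37.5, 40.3 and 38.8 CPM with TGF-β1, against 50.8, 51.4 and 45.1 CPM without it. Every TGF-β1 library was below every other library, and IFIT1 was lower by a log2 change of -0.34 ± 0.06 (adjusted p = 2.65e-05, edgeR). IFIT3, the cofactor that stabilises IFIT1, had 87.4, 92.7 and 82.0 CPM with TGF-β1, against 98.9, 99.2 and 93.6 CPM without it. Its groups came within 1 CPM of each other, and the log2 change was -0.15 ± 0.05 (adjusted p = 0.00738, edgeR). Without replicate 3 of the TGF-β1 group it was -0.11 (adjusted p = 0.112, edgeR). The call was also lost in limma on log2(FPKM + 1) with no filter. IFIT2 had 72.2, 73.0 and 69.7 CPM with TGF-β1 and 76.6, 73.8 and 74.2 CPM without it. Although the groups did not overlap, its change of -0.06 (95% interval -0.16 to 0.03) did not pass (adjusted p = 0.322, edgeR). IFIT5 had 26.3, 25.1 and 25.95 CPM with TGF-β1 and 28.8, 25.96 and 27.1 CPM without it, groups that overlap, with an interval of -0.24 to 0.07 (adjusted p = 0.432, edgeR).

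The IFITM genes encode small membrane proteins that hold viruses in endosomes, and form a cluster on chromosome 11. IFITM2 (chr11:307631-315272, plus strand, an interval that also holds IFITM1) had 19.6, 18.0 and 15.8 CPM with TGF-β1, against 31.1, 33.3 and 32.7 CPM without it. The groups lay far apart, and the log2 change of -0.87 ± 0.08 was among the largest of the set (adjusted p = 9.38e-12, edgeR). IFITM3, the most abundant gene of the set, had 136, 157 and 139 CPM with TGF-β1, against 179, 188 and 187 CPM without it. It was lower in 3 of 3 TGF-β1 libraries, with a log2 change of -0.36 ± 0.04 (adjusted p = 7.43e-09, edgeR). IFITM1 was scarce, at 2.37 to 3.59 CPM with TGF-β1 and 3.61 to 4.92 CPM without it, and its change of -0.42 ± 0.21 did not pass (adjusted p = 0.105, edgeR). IFITM1 and IFITM2 share exonic bases on the same strand (32.5% of those of IFITM1 and 22.8% of those of IFITM2), and 21.3% of those of IFITM3 overlap a gene on the opposite strand. The 3 genes are close paralogues as well, so how reads were divided between them is uncertain.

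Of 3 further effectors, 2 fell. BST2 (tetherin), which tethers budding virus to the cell surface, had 26.7, 28.8 and 28.9 CPM with TGF-β1, against 39.1, 37.9 and 38.3 CPM without it. The groups were separated by more than the spread of either, and the log2 change was -0.45 ± 0.07 (adjusted p = 6.66e-07, edgeR). IFI6, a mitochondrial and endoplasmic reticulum protein with antiviral activity, had 36.2, 39.1 and 39.2 CPM with TGF-β1, against 44.2, 43.3 and 44.0 CPM without it. It was lower in 3 of 3 TGF-β1 libraries by a log2 change of -0.20 ± 0.06 (adjusted p = 0.00914, edgeR), and without replicate 1 of that group by -0.16 with an adjusted p of 0.0587. IFI27, a mitochondrial protein that is among the most inducible by interferon in many tissues, stood at 6.51, 7.15 and 6.84 CPM with TGF-β1 and at 6.62, 7.84 and 7.53 CPM without it. Those groups overlapped, with an interval of -0.39 to 0.19 (adjusted p = 0.628, edgeR).

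The OAS family moved in both directions. Its enzymes OAS1, OAS2 and OAS3 sense double-stranded RNA and make the oligoadenylate messenger that activates RNase L, and their genes lie next to each other on chromosome 12. OAS3 had 105, 88.3 and 96.1 CPM with TGF-β1, against 117, 113 and 115 CPM without it. All TGF-β1 libraries were lower, and the log2 change was -0.25 ± 0.05 (adjusted p = 2.88e-05, edgeR), while limma on log2(FPKM + 1) with no filter gave -0.23 and an adjusted p of 0.0612. OAS2 had 14.1, 17.1 and 14.8 CPM with TGF-β1, against 19.3, 19.5 and 15.8 CPM without it. Its groups overlapped; the log2 change was -0.25 ± 0.10 and only just passed (adjusted p = 0.0468, edgeR), and the call was lost under 11 of 18 alternative settings, among them the DESeq2 Wald test (adjusted p = 0.0791) and the fits without replicate 1 or 3 of the TGF-β1 group or replicate 1 or 2 of the other. OAS1 had 5.01, 5.06 and 5.18 CPM with TGF-β1 and 4.77, 6.30 and 6.32 CPM without it, groups that overlap, with an interval of -0.52 to 0.14 (adjusted p = 0.399, edgeR).

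OASL, a relative without synthetase activity that enhances RIG-I signalling, rose while OAS3 fell. OASL had 68.3, 70.9 and 70.9 CPM with TGF-β1, against 63.6, 64.0 and 58.1 CPM without it. The groups did not overlap, and OASL was higher by 0.18 ± 0.05 on the log2 scale (adjusted p = 0.00486, edgeR). That call was lost when libraries were scaled by totals alone (0.06, adjusted p = 0.391, edgeR) and without replicate 3 of the group without TGF-β1 (0.13, adjusted p = 0.0681, edgeR). It was also lost in limma on log2(FPKM + 1) with no filter.

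Neither MX gene, nor the nucleotide and RNA decay enzymes, passed the threshold. MX1, a GTPase that traps viral nucleocapsids, had 5.70, 9.80 and 8.92 CPM with TGF-β1 and 9.88, 7.94 and 6.57 CPM without it. The libraries of each group covered almost the same range, with a 95% interval of the log2 change of -0.36 to 0.36 (adjusted p = 0.99, edgeR). MX2, which acts on retroviruses and herpesviruses, had 8.57, 8.23 and 9.11 CPM with TGF-β1 and 10.3, 9.02 and 8.92 CPM without it, with an interval of -0.38 to 0.13 (adjusted p = 0.475, edgeR). RSAD2 (viperin), which makes a chain-terminating nucleotide, had 20.3, 22.2 and 20.045 CPM with TGF-β1 and 21.4, 22.0 and 22.1 CPM without it. Its groups overlapped within an interval of -0.23 to 0.10 (adjusted p = 0.594, edgeR). CMPK2, the neighbour of RSAD2 that supplies the substrate for that nucleotide, was the gene left untested, with 2 counts in all, both in replicate 1 of the TGF-β1 group. ISG20, an exonuclease that degrades viral RNA, had 21.4, 22.3 and 22.4 CPM with TGF-β1 and 20.1, 23.8 and 22.7 CPM without it, with an interval of -0.18 to 0.16 (adjusted p = 0.945, edgeR).

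ISG15, HERC5, HERC6 and USP18, the genes of the set in the ISG15 system, did not pass the threshold. ISG15, a ubiquitin-like protein that is attached to other proteins, had 64.2, 68.4 and 66.9 CPM with TGF-β1 and 66.1, 69.2 and 67.6 CPM without it. The groups overlapped almost fully, and the log2 change of -0.02 had a 95% interval of -0.12 to 0.08 (adjusted p = 0.761, edgeR). HERC5, the main ligase that attaches ISG15 in human cells, had 3.07 to 5.23 CPM with TGF-β1 and 5.46 to 5.88 CPM without it. Every TGF-β1 library was lower, but the log2 change of -0.42 ± 0.18 did not pass (adjusted p = 0.0561, edgeR). Without replicate 2 of the TGF-β1 group the change of HERC5 was -0.60 with an adjusted p of 0.0139 (edgeR). With all libraries, HERC5 passed as lower under upper-quartile factors, library totals alone and a filter of at least 1 CPM in 3 libraries. HERC6, the relative that attaches ISG15 in mouse, had 27.2, 29.6 and 28.8 CPM with TGF-β1 and 31.7, 32.0 and 30.4 CPM without it. Those groups did not overlap, and the change was -0.13 ± 0.07 (adjusted p = 0.142, edgeR). HERC6 passed as lower under upper-quartile factors and under library totals alone. USP18, which removes ISG15 and also damps the type I interferon receptor, stood between 3.36 and 4.89 CPM in the 6 libraries, with an interval of -0.44 to 0.32 (adjusted p = 0.836, edgeR).

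PARP9 and DTX3L, an ADP-ribosyltransferase and a ubiquitin ligase that act as a complex and overlap by their starts on chromosome 3, both fell. PARP9 had 7.68, 8.83 and 7.65 CPM with TGF-β1, against 11.3, 12.2 and 9.17 CPM without it. The groups did not overlap, and PARP9 was lower by a log2 change of -0.43 ± 0.13 (adjusted p = 0.00584, edgeR). It did not pass without replicate 2 of the group without TGF-β1 (-0.35, adjusted p = 0.0595, edgeR) or in limma on log2(FPKM + 1) (-0.21, adjusted p = 0.113). Limma on log2(FPKM + 0.1), and on log2(FPKM + 1) with no filter, lost the call too. DTX3L had 21.0, 21.7 and 21.3 CPM with TGF-β1, against 26.96, 29.3 and 26.6 CPM without it. Its TGF-β1 libraries lay close together and well below the others, with a log2 change of -0.37 ± 0.08 (adjusted p = 0.000156, edgeR).

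SAMD9 and its neighbour SAMD9L, restriction factors of poxviruses on chromosome 7, did not pass the threshold. SAMD9, among the more abundant genes of the set, had 102, 104 and 105 CPM with TGF-β1 and 112, 104 and 107 CPM without it. The groups overlapped, and its 95% interval ran from -0.14 to 0.03 (adjusted p = 0.342, edgeR). SAMD9L had 33.6, 32.2 and 29.9 CPM with TGF-β1 and 32.7, 31.3 and 32.2 CPM without it, with an interval of -0.15 to 0.13 (adjusted p = 0.949, edgeR).

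The last 4 genes held the extremes of the set in both directions. IFI44 (chr1:78649796-78664078, plus strand), a cytosolic protein with antiviral activity, had 33.2, 34.9 and 30.1 CPM with TGF-β1, against 20.3, 21.0 and 22.5 CPM without it. All 3 TGF-β1 libraries lay above the others by more than the spread of either group, and IFI44 was higher by 0.62 ± 0.08 on the log2 scale (adjusted p = 9.75e-09, edgeR). IFI44L, its relative 3.65 kb away, was scarce at 2.95 to 4.52 CPM with TGF-β1 and 2.96 to 3.68 CPM without it, with a change of 0.19 ± 0.21 (adjusted p = 0.528, edgeR). IFI35, a leucine zipper protein that is released from dying cells and modulates RIG-I signalling, had 7.48, 6.94 and 7.11 CPM with TGF-β1, against 12.1, 13.0 and 14.4 CPM without it. Its TGF-β1 libraries were all far lower, and the log2 change of -0.88 ± 0.12 was the lowest of the set (adjusted p = 8.22e-08, edgeR). XAF1, a pro-apoptotic partner of the inhibitor XIAP, had 3.49 to 5.58 CPM with TGF-β1 and 2.28 to 4.06 CPM without it. These groups overlapped, and the change of 0.50 ± 0.21 did not pass (adjusted p = 0.0558, edgeR) but did so without replicate 2 of the TGF-β1 group (0.70, adjusted p = 0.00737) and without replicate 1 of the other (0.65, adjusted p = 0.0347). Of the exonic bases of XAF1, 38.3% overlap a gene on the opposite strand.

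**Figure D4:**
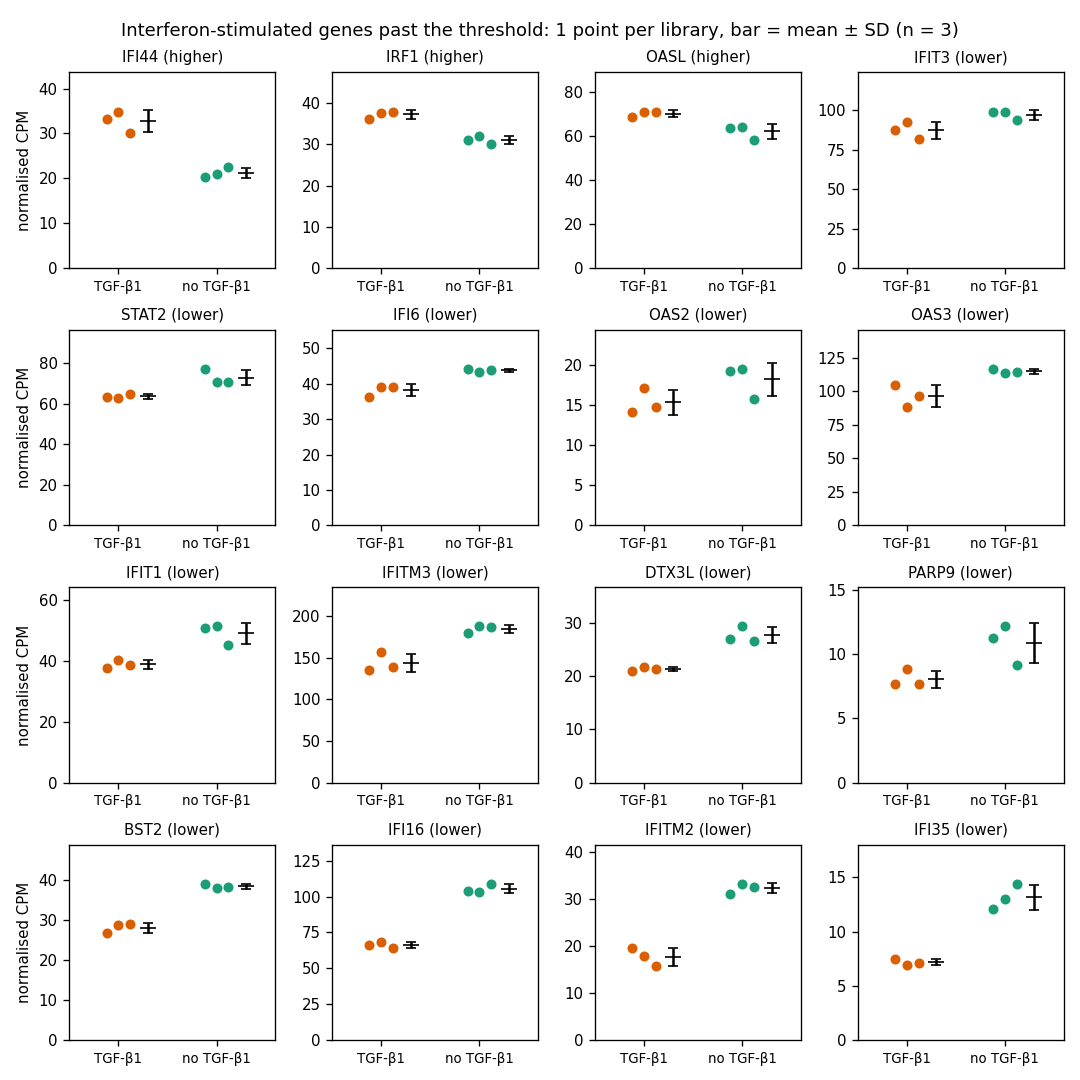
Normalised CPM of the 16 interferon-stimulated genes past the threshold, 1 panel per gene with its own axis starting at 0, 1 point per library and a bar for the mean ± SD (n = 3 per group), the TGF-β1 group left. IFI44, IRF1 and OASL are higher with TGF-β1 and the other 13 lower, and only in OAS2 do the points of the groups overlap.

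The 22 genes that did not pass were 18 with a fitted value below 0 and 4 above it, and 15 of them had a mean of at least 5 CPM. In the set as a whole 31 genes reached that level, and among these the coefficient of variation between replicates was 1.02 to 26.5% with TGF-β1 (median 4.31%) and 1.1 to 20.5% without it (median 5.17%). Genes of the set lay at the median percentile 57.6 of the mean level of all tested genes, with a range of 9.31 to 92.4. Levels per length were compared in deposited FPKM (fragments scaled to gene length and to a library size described below). The order was led by IFITM3 at 104 ± 8.01 with TGF-β1 and 133 ± 3.02 without it. ISG15 followed at 68.8 ± 2.22 with TGF-β1 and 69.8 ± 1.45 without it (SD, n = 3 each for both genes). Next was IFI6 at 42.9 FPKM with TGF-β1 and 49.2 without it. The groups of ISG15 did not differ beyond their spread. Near the low end of the FPKM order, MX1, MX2 and HERC5 ranked 33, 34 and 32 of the 38 tested genes. Their means were 0.919, 0.644 and 0.865 FPKM with TGF-β1 and 0.916, 0.700 and 1.16 FPKM without it.

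On the chromosomes, 13 pairs of these genes are neighbours, and some genes, such as IFIT1, belong to more than 1 pair. No share over neighbouring genes outside the set was computed. In 3 pairs both genes were lower (IFIT3 with IFIT1, OAS3 with OAS2, and PARP9 with DTX3L). In 6 pairs 1 gene passed and the other did not, as for IFI44 and IFI44L. In the other 4 pairs neither gene passed, 1 of these being CMPK2 with RSAD2, where CMPK2 was not tested.

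Outside the set, 115 further genes of the pathway were listed by role, and 99 of them were tested, 16 higher (16.2%) and 30 lower (30.3%), against 20.2% and 18.7% of all tested genes. Most of the interferon genes themselves had few or no counts. Of 12 ligand genes, 5 had no count, and 5 had 2 to 62 counts in all libraries together and were not tested. The other 2 did not pass. IFNE, the more abundant of those 2, had 4.37, 3.98 and 2.16 CPM with TGF-β1 and 3.01, 3.81 and 2.82 CPM without it. IFNL1 was at 0.463 to 0.663 CPM with TGF-β1 and 0.197 to 0.857 CPM without it. A count of 0 allows up to 3 counts in a library, so interferon transcripts below that level were not detectable at this depth.

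Of 9 receptors and kinases, 3 rose (33.3%) and 0 fell, against 20.2% and 18.7% of all tested genes. JAK1, the kinase shared by all interferon receptors, had 401, 417 and 412 CPM with TGF-β1, against 314, 312 and 331 CPM without it. The groups did not overlap, and JAK1 was higher by 0.36 ± 0.03 on the log2 scale (adjusted p = 1.03e-12, edgeR). The interferon-γ receptor chains IFNGR1 (0.24, adjusted p = 0.0017) and IFNGR2 (0.15, adjusted p = 0.0372) were also higher (edgeR), while the type I receptor chain IFNAR1 gave -0.05 (95% interval -0.14 to 0.03; adjusted p = 0.338).

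Among 14 tested adaptors and kinases of nucleic acid sensing, 3 rose (21.4%) and 2 fell (14.3%), shares near the 20.2% and 18.7% of all tested genes. The changes of TMEM173 and TRIM25 were larger than that of any gene of the set. TMEM173, which encodes STING, the adaptor that relays cytosolic DNA, had 77.9, 82.2 and 79.8 CPM with TGF-β1, against 41.5, 37.7 and 39.1 CPM without it, a log2 change of 1.02 ± 0.05 (adjusted p = 7.5e-20, edgeR). TRIM25, a ubiquitin ligase that acts on RIG-I and is itself interferon-induced, had 74.9, 76.2 and 77.1 CPM with TGF-β1, against 161, 164 and 167 CPM without it. The groups lay far apart, with a log2 change of -1.11 ± 0.04 (adjusted p = 2.04e-25, edgeR). The DNA sensor CGAS (0.33, adjusted p = 0.000169) and the signalling adaptor TRAF3 (0.36, adjusted p = 2.03e-09) were higher, and MAVS, the mitochondrial adaptor of RIG-I and MDA5, was lower (-0.19, adjusted p = 5.06e-06, edgeR; named after its value was seen).

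Of 11 negative regulators, 2 rose (18.2%) and 2 fell (18.2%), near the shares of all tested genes. SOCS3, which blocks JAK kinases, had 36.2, 32.6 and 37.2 CPM with TGF-β1, against 42.5, 45.5 and 40.8 CPM without it, a log2 change of -0.28 ± 0.07 (adjusted p = 0.000648, edgeR). SOCS1, the other suppressor of this kind, was lower too (-0.74, adjusted p = 0.000631, edgeR), though with a mean under 5 CPM, and was named after its value was seen. The phosphatase PTPN11 (0.17, adjusted p = 1.67e-05) and the ubiquitin ligase TRIM27 (0.15, adjusted p = 0.00739) were higher (edgeR).

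A longer list of 68 other interferon-induced genes held more lower than higher genes. Of the 63 tested, 26 were lower (41.3%) and 8 were higher (12.7%), against 18.7% and 20.2% of all tested genes, and the median log2 fold change was -0.14. CASP4, an inflammatory caspase that binds lipopolysaccharide, had 28.8, 27.6 and 26.5 CPM with TGF-β1, against 59.5, 58.5 and 59.9 CPM without it, a log2 change of -1.10 ± 0.06 (adjusted p = 6.17e-19, edgeR). GBP2, a GTPase that acts on intracellular pathogens, had 9.30, 8.83 and 7.42 CPM with TGF-β1, against 17.2, 19.6 and 19.8 CPM without it. GBP2 (-1.15, adjusted p = 9.76e-12), GMPR, a purine enzyme (-1.16, adjusted p = 1.52e-07), and CASP1, which matures interleukin-1β (-1.10, adjusted p = 3.02e-07), were all lower by a log2 change past -1 (edgeR). Genes within the list went both ways, and the following were chosen after their values were seen. UBA7 (-0.62, adjusted p = 4.72e-06) and UBE2L6 (-0.44, adjusted p = 4.23e-09), the activating and conjugating enzymes for ISG15, were lower (edgeR). NLRC5, the activator of class I antigen presentation genes, was higher (0.63, adjusted p = 2.63e-14, edgeR). Higher too were the peptide transporter subunit TAP1 (0.30, adjusted p = 1.82e-06) and GBP1 (0.60, adjusted p = 4.62e-14, both edgeR). So was CD274, which encodes PD-L1 (0.49, adjusted p = 7.77e-09, edgeR). The immunoproteasome subunit PSMB8 was lower (-0.26, adjusted p = 0.00044, edgeR). CIITA, with a mean under 5 CPM, had the lowest value of the list (-1.21, adjusted p = 9.97e-05, edgeR).

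How many genes of the set were called depended on the scaling between libraries. TMM factors were 0.957 to 0.963 with TGF-β1 and 1.04 without it, and scaling by totals alone shifted the median change of all tested genes by -0.12 on the log2 scale. Under that scaling 21 genes of the set were lower and 1 was higher, and the share of all calls that were higher dropped to 27.4%, against 51.8% with TMM. The set stood 0.12 below the median of all genes on the log2 scale under both scalings. That equality was fixed in advance, because a change of factors alone shifts all genes by nearly the same amount. The genes gained as lower were IFIT2, IFIT5, IFITM1, ISG15, HERC5, HERC6, DDX58 and SAMD9, and those lost as higher were OASL and IRF1. Under the reported settings and all 18 alternatives, IFI44 was higher and IFIT1, IFITM2, IFITM3, BST2, DTX3L, IFI16 and IFI35 were lower. No gene called under the reported settings changed sign under any of them.

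**Figure D5:**
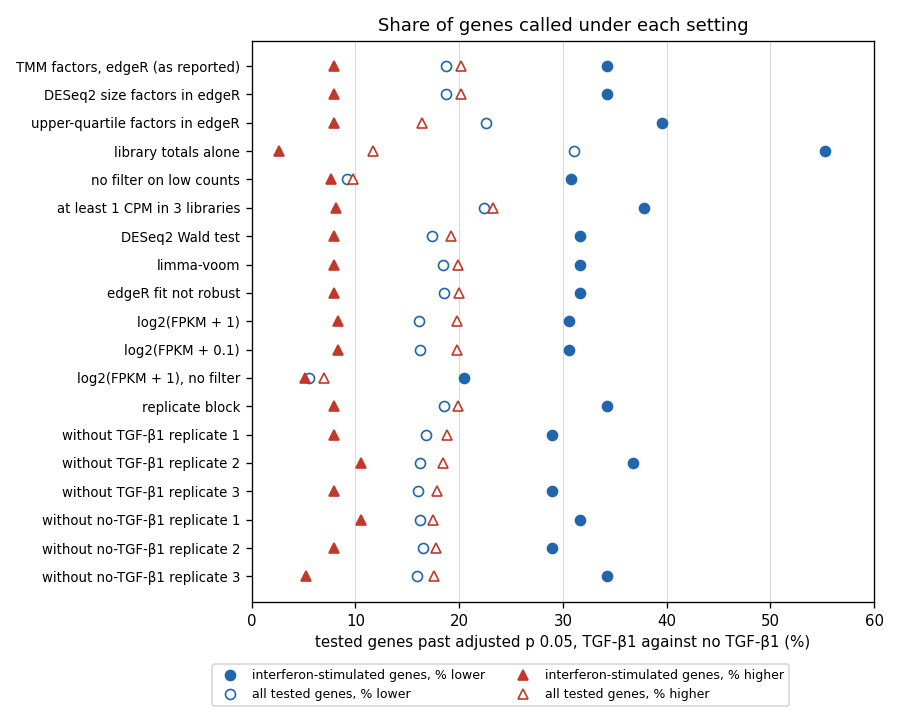
Percentage of tested genes past an adjusted p of 0.05 (x axis) under the reported settings and 18 alternatives (rows), as lower (blue circles) and higher (red triangles), filled for the interferon-stimulated genes and open for all tested genes. The filled circles lie right of the open ones in every row, at 34.2% against 18.7% as reported, and move furthest right when library totals alone are used.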

How the data were processed

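RNA was sequenced from 6 libraries of LX-2 cells with NSUN2 siRNA, 3 with TGF-β1 and 3 without, grouped by their sample labels. The deposited count table holds whole-number read counts per gene that the authors did not normalize. The deposited FPKM table holds the authors' values scaled to gene length and to a library size that was not the total count. That size was 0.984 to 0.987 of the total counts with TGF-β1 and 1.07 to 1.08 without it. The fits on FPKM therefore already carry a scaling between the groups and are no separate check of it. The submitters' processing notes name the tools fastp and HISAT2 2.2.1 and the build hg38. The counting tool, strand setting and annotation release are details not given in the sources used here. Of the per-sample columns in each table, 6 more matched no sample and were not used. Gene positions and strands of all 39 members matched GENCODE release 29, which gave exon overlaps.

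Counts were tested with edgeR 4.0.16 in R 4.3.3: filterByExpr (minimum count 10, minimum total 15), TMM factors, robust glmQLFit and glmQLFTest on group alone, two-sided, Benjamini-Hochberg adjustment over 17215 genes, adjusted p under 0.05. Normalised CPM uses TMM-scaled library sizes. The SE of a log2 fold change is its size over the square root of F, and 95% intervals use the total degrees of freedom of the fit. Residual degrees of freedom were 4 and the biological coefficient of variation was 5.62%, which limits how small a change can be called. The scripts were tested on simulated counts.

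Alternatives were other scalings and filters, DESeq2 1.42.0, limma-voom, limma 3.58.1 on log2(FPKM + 1) or log2(FPKM + 0.1), the replicate number as a block, and each library left out. The members, the pathway lists and the rules were chosen with earlier results of these data known. Values per library are given for members that were called or had a mean of at least 5 CPM, and other members are given by range. From each pathway list, up to 4 called genes of at least 5 CPM with the largest change were named, or 2 abundant ones where none was called; PMEPA1 and NSUN2 served as checks, and a further gene taken as a check is not reported here. Motifs were counted with Python 3.11.15 in the RefSeq promoter table (GRCh38.p14). No set test was run.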

Additional observations from a re-analysis of the deposited data

How the results depend on the processing

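For the interferon-stimulated genes, 641 of 679 values of single genes under the 18 alternatives kept their side of the threshold. Of the rest, 24 lost a call and 14 gained one. No called value changed sign, while 21 uncalled values in 6 genes did. Adjusted p-values over the alternatives (edgeR, DESeq2 or limma) ran from 0.00104 to 0.0835 for IRF1, 5.15e-06 to 0.13 for IFIT3, 4.8e-05 to 0.0587 for IFI6, 0.00262 to 0.317 for OAS2, 0.0038 to 0.391 for OASL, 0.000451 to 0.212 for PARP9, 2.13e-08 to 0.0612 for OAS3, 1.96e-06 to 0.0603 for STAT2, 0.0119 to 0.343 for HERC5 and 0.00737 to 0.444 for XAF1. With library totals as the only scaling, 2019 genes were higher and 5354 lower over all genes, 1 was higher and 21 lower in the set, 10 were higher among the other pathway genes, and the median log2 fold change of the set was -0.25. Upper-quartile factors gave a median of -0.18. With them, 3 genes of the set were higher and 15 lower, beside 2821 higher and 3897 lower over all genes. In limma on log2(FPKM + 1) the median was -0.080. With no filter on FPKM it was -0.061, and the lower genes were 1881 over all genes, 8 in the set and 19 in the pathway lists. Leaving out each library gave 3089 to 3366 higher and 2850 to 3009 lower genes over all genes, 2 to 4 higher and 11 to 14 lower in the set, 15 to 19 higher and 27 to 30 lower in the pathway lists, and a median of -0.15 to -0.11. The fits without a library keep 2 samples in that group. The labels give both groups replicate numbers 1 to 3, but same-numbered libraries did not deviate together (correlations of -0.005, 0.011 and -0.009), and only replicate 2 correlated best with its own number. With the replicate number as a block, 3 genes of the set were higher and 13 lower, and 3431 and 3182 over all genes, so the block changed no count by more than 1.5 times. Counting depth limits the 7 tested genes under 5 CPM most; TLR3 and IRF9 have intervals wider than any change called in the set. Exon overlap with other genes exceeds 20% in 6 genes.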
